A study of Mus musculus with 46 samples.

Results

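Old and young mouse livers were compared 1 h after removal of 70% of the liver mass (partial hepatectomy, PH). The comparison took in the 6 arrays whose titles name this operation at this time, 3 from old and 3 from young mice, out of 46 arrays in the series. All mice were males of the CB6F1 hybrid strain, 5 to 6 months of age in the young group and 25 to 27 months in the old group. Young mice came from Jackson Laboratories and old mice from the National Institute on Aging, so age and supplier cannot be told apart. Both groups received injected avertin followed by inhaled isoflurane. For comparison there were unoperated livers (0 h, 3 arrays for each age) and livers 1 h after a sham operation (2 arrays for each age), which share the strain, sex, suppliers and ages; other arrays covered 0.5, 2 and 4 h. The labels call the arrays replicates without saying that each is its own animal. What the p-values measure is thus the scatter among arrays, some of which may come from the technique.

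Signals are RMA values on the log2 scale, where a difference of 1 is a doubling. A difference is the old mean minus the young mean, given with the standard error (SE) of the difference. The SE rests on a spread pooled over all groups of the 46 arrays, not on the compared groups alone. The median standard deviation of the probe sets was 0.142 in old livers 1 h after hepatectomy, the highest of all groups. In young livers at that time it was 0.0989. Where the old arrays scatter more than the pooled spread, the SE and p-value understate that scatter. A probe set, the group of probes that reads 1 transcript, passed at an adjusted p under 0.05 (limma, Benjamini-Hochberg over 12422 probe sets). A gene with several probe sets is represented by its brightest one, judged on the mean of the 46 arrays.

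In the first hours after hepatectomy the remaining hepatocytes leave their resting state. Immediate early transcription factors such as Fos, Jun and Egr1 are induced, and cytokines made largely by Kupffer cells, the resident macrophages of the liver, act on hepatocytes through NF-kB and STAT3. The same cytokines drive the acute phase response, in which hepatocytes raise secreted defence proteins such as serum amyloid A and lipocalin 2. In resting liver the hepatocyte devotes much of its transcription to plasma proteins, drug-metabolising cytochrome P450 enzymes and, in males, products that depend on pulsatile growth hormone.

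The arrays carried the expression of liver. Albumin (Alb) averaged 13.69 in the young and 13.72 in the old arrays, and the mean of 24 hepatocyte markers lay between 11.3 and 11.4 on the young arrays and between 11.1 and 11.3 on the old. One array stood apart. Old replicate 3 correlated with the other 5 arrays of the comparison at r = 0.967 to 0.980 over all probe sets, while those 5 correlated with one another at 0.990 to 0.997. Among the young arrays, replicate 1 was nearest to the old mean for 102 of the 149 probe sets that were higher in old. Because old replicate 3 bears on nearly every result, the value without it is also given for many of the genes below. A gene printed without that value may still depend on the array. Without old replicate 3, Ccnd1 went from 0.07 to -0.21, Cebpa from -0.03 to 0.27 and G6pc from -0.27 to -0.07.

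In the livers of old mice 1 h after hepatectomy, secreted acute phase proteins such as Lcn2, Apcs and Lbp and the NF-kB targets Nfkbiz and Tnfaip3 were among the genes that were higher, and Upp2, Inmt and Cyp2b10 were among those that were lower. Of 12422 probe sets, 252 passed (2.03%), 149 higher in old (1.2%) and 103 lower (0.829%). They stand for 129 and 78 genes. The higher ones had a median difference of 0.70 and reached 4.68 (Lcn2), and the lower ones had a median of -0.56 and reached -2.08 (Upp2). By size, 42 were over 1 and 12 under -1. The 3 old and 3 young arrays did not overlap in 144 of the 149 and 91 of the 103, against 9.86% and 10.8% of all probe sets in those directions (20.7% in either). The calls were made on these same arrays, so their separation follows from the choice and is no further support. With each array centred on its own median the split became 123 higher and 140 lower.

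No probe set passed without old replicate 3 (limma), although 952 had an unadjusted p under 0.05, against 2327 with it. All 149 and all 103 kept their sign without that array, with medians of 0.54 and -0.46. The remaining arrays had also served to choose these probe sets, so the kept signs are no independent support. For 134 of the 149 and 90 of the 103, old replicate 3 was the old array farthest from the young mean. The count also depended on the young arrays: it was 328 without young replicate 1, 3 without young replicate 2 and 6 without young replicate 3. Without old replicate 1 it was 640 and without old replicate 2 it was 577. When only the 6 compared arrays were fitted, 1 probe set passed, which was not among the 252, with 1650 at an unadjusted p under 0.05.

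**Figure D1:**
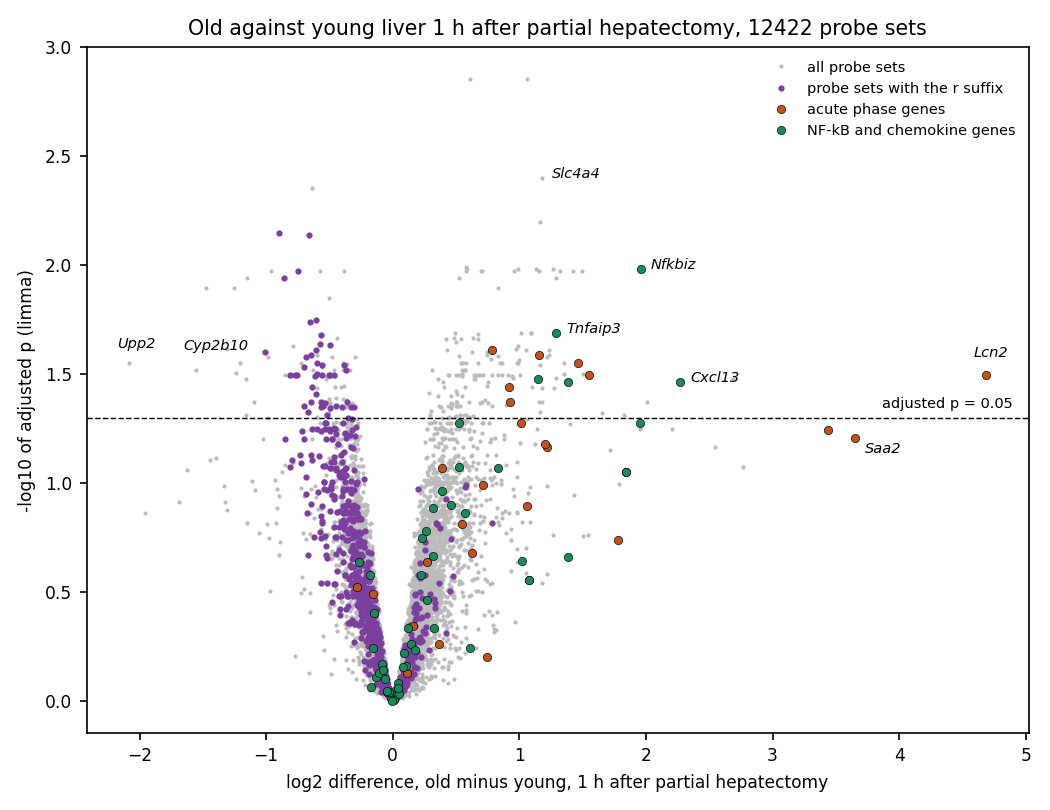
Each point is 1 of 12422 probe sets, with the log2 difference between old and young livers 1 h after hepatectomy on the x axis and -log10 of the limma adjusted p on the y axis; the dashed line marks an adjusted p of 0.05. Lcn2 lies farthest to the right at 4.68, the acute phase and NF-kB genes past the line all lie on the side of old, and the probe sets with the r suffix past the line all lie on the side of young.

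Acute phase genes, the secreted proteins that the liver makes in inflammation, were the list with the largest shift. Of 29 measured members, 26 had a positive difference, 7 passed as higher and 0 as lower. With 1 probe set per gene, 1.9% of 8251 genes passed, 1.37% as higher and 0.533% as lower. The median difference of the list was 0.92 against -0.0037 over all genes, and it was 0.70 without old replicate 3, where 0 members passed. The list was 0.23 higher in old at 0 h and 0.50 higher 1 h after the sham operation, on separate arrays.

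Lcn2, which encodes lipocalin 2, a protein that withholds iron from bacteria, gave signals of 9.05, 5.09 and 4.92 on young replicates 1, 2 and 3 and of 10.95, 9.81 and 12.36 on old replicates 1, 2 and 3. Every old array was above every young array, and young replicate 1 was nearer to the old arrays than to the other young ones. The difference was 4.68 ± 1.16 (SE, adjusted p = 0.0317), and 4.02 ± 1.29 without old replicate 3. Before surgery Lcn2 differed by 1.30 and after the sham operation by 4.42, and neither passed. A second Lcn2 probe set, with the r suffix, gave -0.06 and lay near 7 on all 6 arrays.

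Serum amyloid A behaved alike on the arrays without passing. Saa2 read 12.40, 8.0 and 8.11 in young and 13.05, 12.86 and 13.56 in old, a difference of 3.65 ± 1.07 (adjusted p = 0.0616). The groups did not overlap, but young replicate 1 was again near the old arrays. Saa-ps, a serum amyloid A pseudogene whose probes may also read its paralogs, passed at 2.01 ± 0.54 (adjusted p = 0.0424).

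Serum amyloid P (Apcs), a pentraxin that binds amyloid and bacteria, read 11.31, 9.93 and 9.99 in young and 11.68, 11.66 and 12.54 in old. Its difference was 1.55 ± 0.39 (adjusted p = 0.0317), and 1.26 without old replicate 3. The lipopolysaccharide-binding protein gene Lbp read 9.70, 8.83 and 8.77 in young and 10.51, 10.01 and 11.17 in old. In both genes all old arrays exceeded all young arrays and young replicate 1 was the highest of the young. Lbp differed by 1.46 ± 0.35 (adjusted p = 0.0281), and by 1.16 without old replicate 3. Ceruloplasmin (Cp), the copper-carrying ferroxidase of plasma, differed by 1.16 ± 0.27 (adjusted p = 0.0258), and by 0.80 without old replicate 3. The other 3 members that passed, the inhibitor heavy chain Itih4, the haem-binding hemopexin (Hpx) and the haemoglobin-binding haptoglobin (Hp), differed by 0.93, 0.92 and 0.78. Without young replicate 1, 14 of the 29 members passed, and without young replicate 2 or 3 none did.

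**Figure D2:**
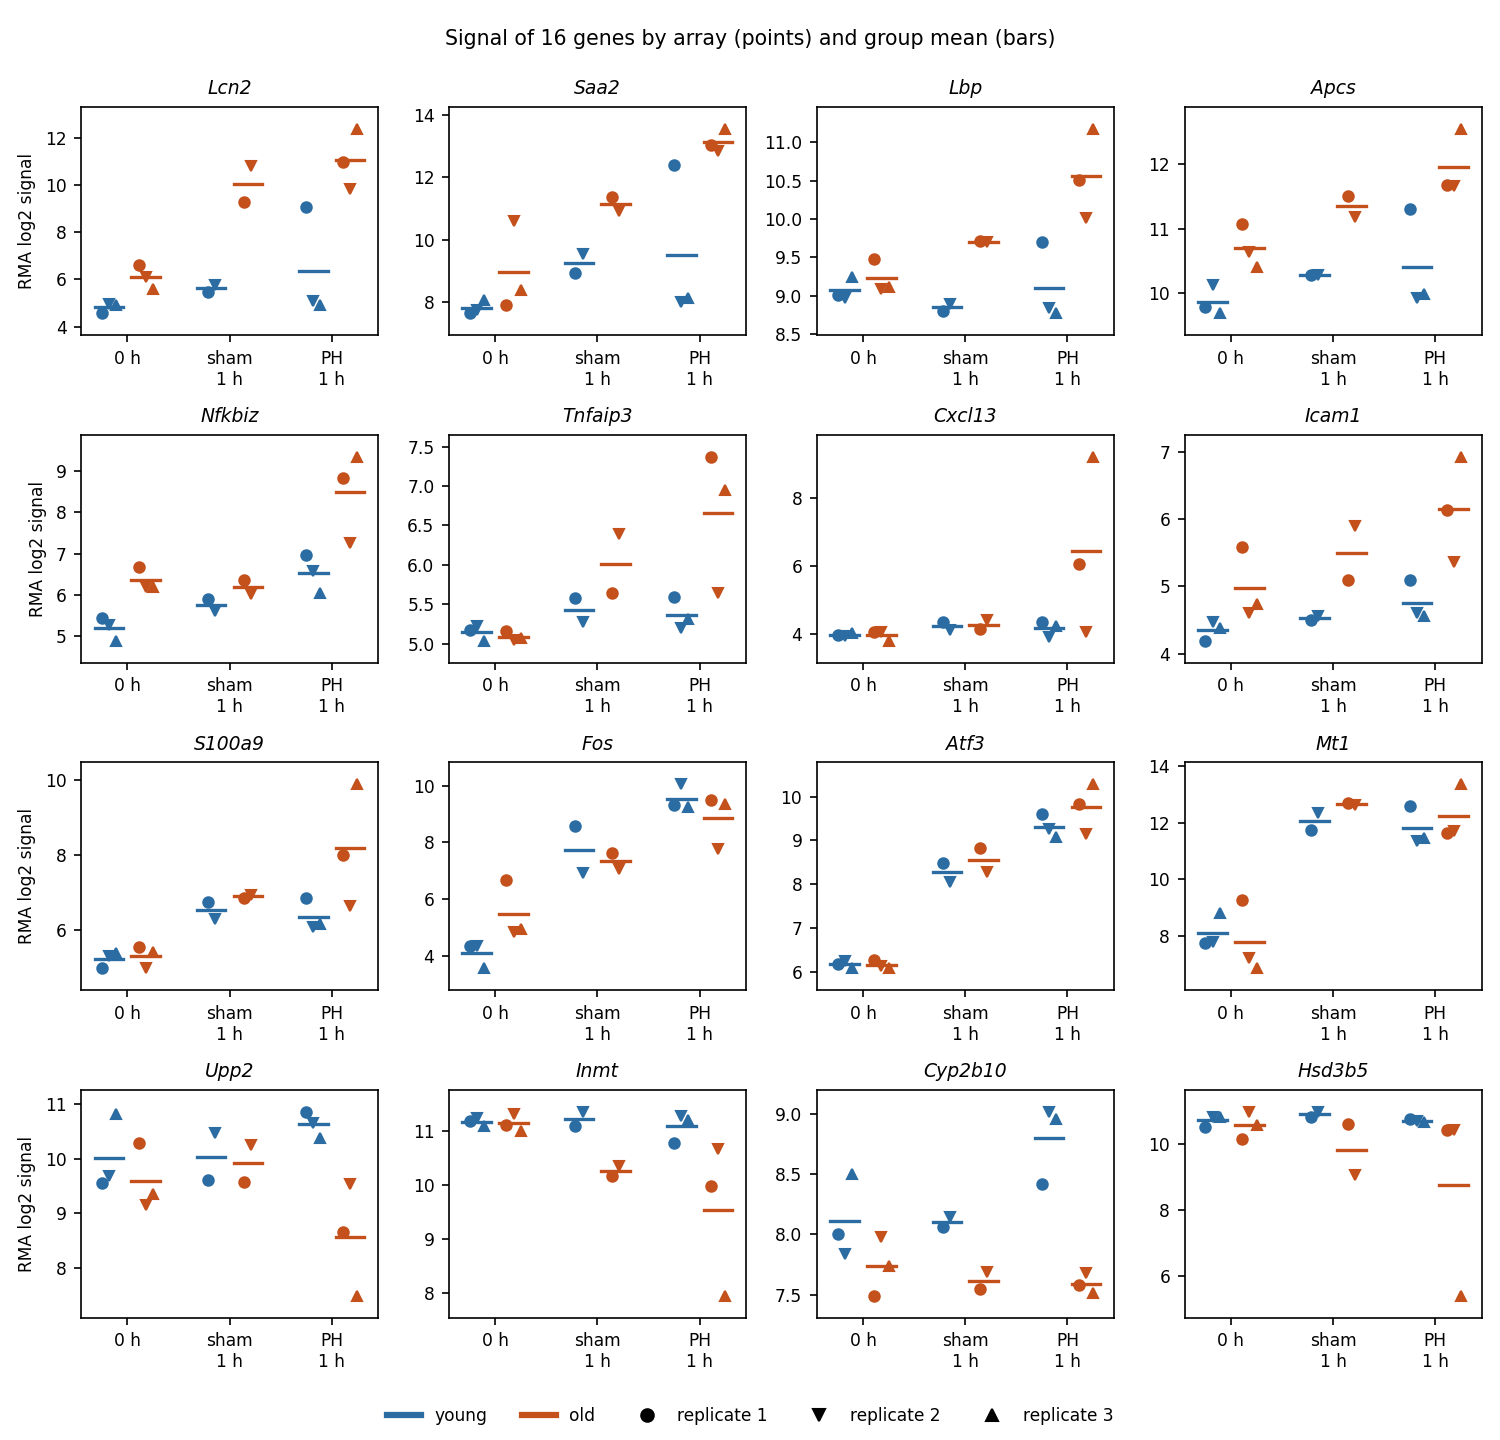
Points are single arrays of 16 genes (y axis, RMA log2 signal) before surgery, 1 h after the sham operation and 1 h after partial hepatectomy (PH), in young (blue) and old (orange) mice, with the marker shape giving the replicate number and bars the group means. For Lcn2, Lbp and Apcs the 3 old PH arrays lie above the 3 young ones, with young replicate 1 the highest of the young, and for Cxcl13, Inmt and Hsd3b5 old replicate 3 lies far from the other arrays.

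Of 50 measured NF-kB targets and chemokines, 36 had a positive difference and 5 passed, all higher in old; the list median was 0.16, and 0.10 without old replicate 3, where 0 passed. Nfkbiz, which encodes the nuclear inhibitor protein IkB zeta and is itself switched on by NF-kB, read 6.96, 6.59 and 6.04 in young and 8.85, 7.26 and 9.36 in old. The groups did not overlap, and old replicate 2 was close to the young arrays. The difference was 1.96 ± 0.38 (adjusted p = 0.0104), and 1.52 ± 0.39 without old replicate 3. Nfkbiz was also 1.15 higher in old before surgery and 0.44 higher after sham, neither of which passed.

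Tnfaip3 encodes the ubiquitin-editing enzyme that ends NF-kB signalling. It read 5.59, 5.20 and 5.31 in young and 7.37, 5.64 and 6.95 in old, so that old replicate 2 barely exceeded the highest young array. The difference was 1.29 ± 0.28 (adjusted p = 0.0203), and 1.14 without old replicate 3. The adhesion molecule gene Icam1 differed by 1.38 ± 0.35 (adjusted p = 0.0344), and by 0.99 without old replicate 3. Cxcl13, the chemokine that attracts B cells, read 4.34, 3.91 and 4.24 in young and 6.05, 4.04 and 9.20 in old. Old replicate 2 lay inside the young range, and the difference of 2.27 ± 0.58 (adjusted p = 0.0342) became 0.88 ± 0.37 without old replicate 3. Il1b, the cytokine interleukin 1 beta, passed as the fifth member at 1.15 (0.73 without old replicate 3). Without young replicate 2 or 3 the list had 0 calls, and without old replicate 2 it had 9. The neutrophil-attracting chemokine gene Cxcl1 did not pass at 1 h (1.96 ± 0.55, adjusted p = 0.0529), and was 2.55 higher in old before surgery (adjusted p = 0.0397).

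For the members of the acute phase and NF-kB lists that passed, the 250 bases before the annotated transcription start were read for 3 motifs. They come from RefSeq on the mouse build GRCm38.p6, each on the strand of the gene, and 9 of the 12 members of both lists that passed have an entry. Searched on both strands were the kB consensus, the C/EBP letters TTNNGNAA and the STAT letters TTCNNNGAA. Of 32851 promoter windows of this length, 7.25% held the kB consensus, 36.8% the C/EBP letters and 7.02% the STAT letters. The kB consensus was found in Tnfaip3, 1 of 4 NF-kB list members with an entry, and in none of 5 acute phase members. The C/EBP letters were found in 4 of 4 and 3 of 5, and the STAT letters in 1 of 4 and 2 of 5. A member counted if the window of any of its annotated starts matched, while the shares above are of single windows, so the 2 are not directly comparable. A match describes the letters and is not evidence of binding. Shown are 1 promoter for each motif, chosen among the members described above, with the matches in capitals: the kB consensus in Tnfaip3 (chr10:19015411-19015660, minus strand), which has matches starting 125 and 12 bases before the start; the C/EBP letters in Lcn2 (chr2:32387740-32387989, minus strand), 216 bases before it; and the STAT letters in Apcs (chr1:172895055-172895304, minus strand), 244 bases before it.
Tnfaip3: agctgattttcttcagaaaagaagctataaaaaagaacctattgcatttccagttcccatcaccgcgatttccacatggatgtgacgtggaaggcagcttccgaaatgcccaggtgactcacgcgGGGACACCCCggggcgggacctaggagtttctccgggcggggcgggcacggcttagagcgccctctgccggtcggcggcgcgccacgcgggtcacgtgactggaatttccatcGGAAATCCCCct
Lcn2: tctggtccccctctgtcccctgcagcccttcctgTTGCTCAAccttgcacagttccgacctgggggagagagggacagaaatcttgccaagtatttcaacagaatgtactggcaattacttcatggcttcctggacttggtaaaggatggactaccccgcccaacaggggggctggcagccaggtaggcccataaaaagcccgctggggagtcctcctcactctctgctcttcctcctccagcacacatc
Apcs: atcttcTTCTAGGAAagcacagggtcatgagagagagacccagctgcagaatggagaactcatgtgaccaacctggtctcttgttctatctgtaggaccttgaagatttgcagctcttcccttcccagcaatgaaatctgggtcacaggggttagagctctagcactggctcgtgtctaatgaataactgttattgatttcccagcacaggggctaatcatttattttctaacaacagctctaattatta

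Markers of neutrophils and macrophages moved with these genes, mainly on 1 array. Over 18 measured neutrophil markers the mean signal was 5.86, 5.48 and 5.50 on the young arrays and 6.15, 5.84 and 7.36 on the old. Old replicate 3 was the highest by over 1, and old replicate 2 lay inside the young range. The list's median difference was 0.50, and 0.03 without old replicate 3. Among the granule genes of the list, Mpo read 7.05, Ngp 8.90 and Elane 8.76 on old replicate 3, against at most 4.46, 5.74 and 6.90 on any other array of the comparison. Ly6g, the surface marker of mouse neutrophils, read 6.06 there, against 5.78 to 6.01 elsewhere. The only members that passed were Lcn2, also an acute phase gene, and S100a9, a subunit of calprotectin. S100a9 read 6.84, 6.06 and 6.14 in young and 8.0, 6.64 and 9.88 in old, a difference of 1.83 ± 0.50 (adjusted p = 0.0483) that became 0.97 without old replicate 3. Its partner S100a8 differed by 2.20 ± 0.63 without passing (adjusted p = 0.0564), and by 1.24 without old replicate 3.

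The 21 Kupffer cell and macrophage markers averaged 6.80, 6.47 and 6.65 in young and 6.83, 6.55 and 7.70 in old. Again only old replicate 3 exceeded the young arrays clearly, and the list's median of 0.33 became -0.02 without it. There were 2 calls. Marco, the bacterial scavenger receptor of macrophages, read 4.58, 4.39 and 4.60 in young and 5.50, 4.75 and 6.59 in old, a difference of 1.09 ± 0.24 (adjusted p = 0.0203) that became 0.60 ± 0.19 without old replicate 3. Mpeg1, the pore-forming perforin 2, differed by 1.01 ± 0.25 (adjusted p = 0.0317) and passed as higher in old at 0.5 and 2 h too. Clec4f, which marks Kupffer cells, read 8.86 on old replicate 3 and 8.51, 8.12 and 8.50 in young. In whole liver more cells of a type and more RNA per cell cannot be told apart, and the part of immune cells in the differences above was not tested. The acute phase median was 0.70 without old replicate 3. Old replicate 1, which stayed in that fit, had a neutrophil marker mean (6.15) above all young arrays, but Lcn2 belongs to both lists. In that fit the neutrophil median was 0.03, with 10 of 18 members positive.

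The other cell markers gave few calls. T and NK cell (23 measured), B and plasma cell (21), endothelial (24), stellate cell and fibroblast (31) and pancreatic and intestinal (18) markers had 0 members past the threshold on their brightest probe sets, with medians from -0.11 to -0.04 (3 to 11 members positive in each). Dimmer probe sets of the endothelial marker Emcn (-0.64) and the stellate cell marker Timp2 (-0.52) passed as lower. A probe set that carries Igkc among several symbols passed as higher (2.69). The bile duct list had 1 lower (Cftr, a chloride channel, -0.46) and the erythroid list 1 lower (Rhag, an ammonia channel of red cells, -0.58, from a probe set with the r suffix). Ighm, the heavy chain of IgM, was 1.54 ± 0.62 higher without passing at 1 h (adjusted p = 0.171). Its arrays did not overlap, and it passed at 2 h with 2.84. Other probe sets that carry this symbol gave -0.26 to 0.96 at 1 h.

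Interferon-induced genes were mostly above 0, with 27 of 33 positive, a median of 0.20, and 2 that passed. The mitochondrial interferon gene Ifi27 read 9.55, 9.06 and 9.38 in young and 10.07, 10.48 and 10.40 in old. All 3 old arrays were higher, and old replicate 3 was not the highest. The difference was 0.99 ± 0.19 (adjusted p = 0.0104), and 0.95 without old replicate 3. Ifi27 was likewise higher in old at 0 h (1.06), after sham (1.12) and at 0.5, 2 and 4 h (1.19, 1.30 and 0.90), passing in each of these 5 comparisons. Trim25, an E3 ligase of antiviral sensing, differed by 0.70 ± 0.14 (adjusted p = 0.0106).

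Immediate early genes, the first responders to hepatectomy, gave no call. Of 44 measured, 27 were positive and 0 passed in either direction, with a median of 0.07. Fos, a subunit of the AP-1 factor, read 9.30, 10.05 and 9.25 in young and 9.48, 7.76 and 9.36 in old. The groups overlapped, and the difference of -0.66 ± 0.92 had an adjusted p of 0.743. Egr1 differed by 0.07 ± 0.57, Jun by 0.35 ± 0.22, Atf3 by 0.44 ± 0.55 and Myc by 0.45 ± 0.38, with adjusted p from 0.403 to 0.965. Without old replicate 3 Atf3 gave 0.17. The nuclear receptor gene Nr4a1 had a difference of -1.09 ± 0.37 (adjusted p = 0.107), and Ier3 one of 1.72 ± 0.52 that rested on old replicate 3 (0.38 without it). Against unoperated livers of the same age, Fos was 5.44 higher in young and 3.39 in old, Atf3 3.14 and 3.59, and Jun 1.27 and 1.76, all past the threshold. Fos was 1.39 higher in old at 0 h without passing, and the age difference of its change was -2.06 ± 1.30 (limma adjusted p = 0.996). The liver-secreted Igfbp1 rose by 4.03 in young and 4.05 in old, and differed between the ages by 0.21 ± 0.57.

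The IL-6 and STAT3 list had 22 of 28 positive, a median of 0.20 and 0 calls. Il6 itself read 3.25 to 3.49 on all 6 arrays. Socs3, the feedback inhibitor of STAT3, read 6.96, 6.98 and 6.88 in young and 7.29, 7.60 and 8.37 in old. The arrays did not overlap, and the difference of 0.81 ± 0.31 did not pass (adjusted p = 0.143; 0.51 without old replicate 3). Stat3 differed by 0.27 ± 0.16 on its brighter probe set. Its other probe set read 8.70, 7.96 and 8.27 in young and 8.81, 9.02 and 9.21 in old, a difference of 0.70 ± 0.20 that did not pass (adjusted p = 0.0589). The C/EBP factors of the acute phase, Cebpb and Cebpd, differed by 0.09 ± 0.26 and 0.14 ± 0.40. The metallothioneins Mt1 and Mt2, metal-binding proteins that had risen at 1 h in both ages, differed by 0.43 ± 0.84 and 0.48 ± 0.78, and by -0.13 and 0.04 without old replicate 3. In that metal list the iron transporter Slc11a2 passed at 0.94 ± 0.24 (adjusted p = 0.0321), with 0.62 without old replicate 3.

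The gene with the greatest difference among those lower in old livers was Upp2. Upp2, uridine phosphorylase 2, read 10.87, 10.66 and 10.39 in young and 8.66, 9.53 and 7.49 in old. No old array reached the young range, and the difference was -2.08 ± 0.50 (adjusted p = 0.0281), or -1.54 ± 0.52 without old replicate 3. Inmt, a methyltransferase of indole amines, read 10.78, 11.28 and 11.20 in young and 9.98, 10.66 and 7.95 in old. Its difference of -1.56 ± 0.38 (adjusted p = 0.0300) became -0.77 ± 0.29 without old replicate 3. Selenbp1, a methanethiol oxidase, differed by -1.10 with all arrays and by -0.42 without it.

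Of 34 cytochrome P450 and drug metabolism genes, 11 were positive, the median was -0.12, and 1 passed as higher and 2 as lower. Cyp2b10, the target gene of the nuclear receptor CAR, read 8.42, 9.02 and 8.96 in young and 7.58, 7.68 and 7.51 in old. Here the 3 old arrays lay close together and below every young array, and the difference of -1.21 ± 0.29 (adjusted p = 0.0281) was -1.17 ± 0.33 without old replicate 3. Cyp1a2, which oxidises aromatic amines and caffeine, differed by -0.79 ± 0.18 (adjusted p = 0.0233), and by -0.47 ± 0.16 without old replicate 3. Cyp3a13 was the member that passed as higher, at 0.71 ± 0.19. Car14, a membrane carbonic anhydrase, read 8.25, 8.66 and 8.85 in young and 7.90, 7.89 and 7.08 in old (-0.96 ± 0.19, adjusted p = 0.0106; -0.69 without old replicate 3). Tdo2, which opens the tryptophan ring, differed by -0.85 ± 0.21 (adjusted p = 0.0317), and by -0.51 without old replicate 3. Its other probe set gave -0.88 ± 0.28 and did not pass (adjusted p = 0.0886).

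The male-biased genes that depend on growth hormone had the lowest list median, -0.46, with 1 of 15 members positive. No member passed, and without old replicate 3 the median was -0.03 with 6 positive. Their mean was 10.2, 10.3 and 10.3 on the young arrays and 10.3, 10.1 and 8.55 on the old. The steroid dehydrogenase Hsd3b5 read 10.75, 10.69 and 10.65 in young and 10.40, 10.41 and 5.41 in old. Mup3, a major urinary protein whose probes may read its close paralogs, read 13.79 to 14.05 on 5 arrays and 9.85 on old replicate 3. Both were low on 1 array, and their adjusted p were 0.137 and 0.133. Without that array they gave -0.29 and 0.03. The related dehydrogenases Hsd3b3 and Hsd3b6 passed with -1.16 each, and gave -0.56 and -0.65 without that array. After sham they gave -0.60 and -1.10, neither past the threshold. The Hsd3b6 probe set carries a suffix, and its probes may read its paralogs. Bile acid synthesis and transport genes (14 measured, median -0.24, 0 calls) included Cyp7a1, the hydroxylase that starts the conversion of cholesterol, at -1.15 ± 0.44, and Cyp8b1 at -1.45 ± 0.45. Neither passed, and without old replicate 3 they gave -0.64 and -0.59. With young replicate 1 left out as well, Cyp7a1 gave -0.05 and Cyp8b1 -0.79.

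**Figure D3:**
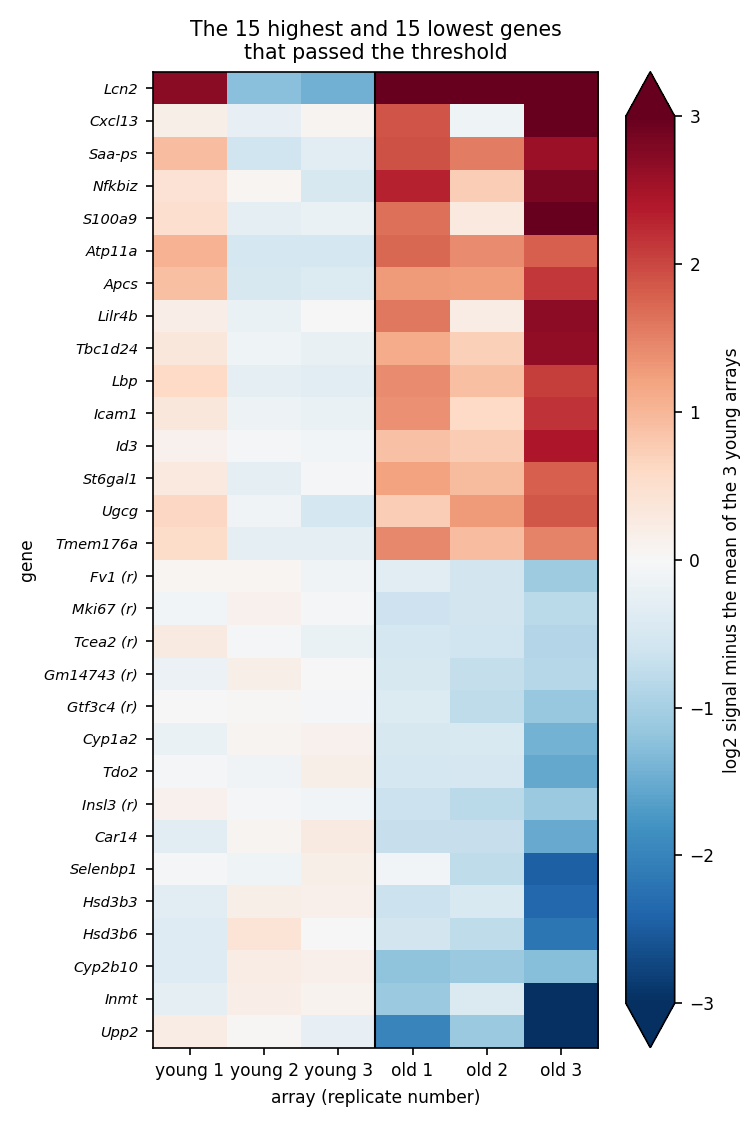
Rows are the 15 highest and 15 lowest genes past the threshold (y axis) and columns the 6 arrays by age and replicate number (x axis), with colour giving the log2 signal minus the mean of the 3 young arrays; (r) marks the r suffix and colours end at 3 and -3. Old replicate 3 has the strongest colour in most rows, while Cyp2b10 and Tmem176a are nearly even over the 3 old arrays.

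Genes of lipid synthesis had 17 of 23 positive, a median of 0.30 and 1 call, the fatty acid synthase gene Fasn (0.76 ± 0.20, adjusted p = 0.0429). Fasn gave 0.82 at 0 h, which did not pass. In the PPAR alpha list, 15 of 24 were positive and the median was 0.08. Vnn1, the pantetheinase, passed as higher (1.24 ± 0.29, adjusted p = 0.0257) with 6.86, 6.40 and 6.47 in young and 6.92, 8.17 and 8.35 in old. Its old replicate 1 was close to the highest young array. Acadvl passed as lower at -0.36 on a dim probe set. Pparg, the adipogenic nuclear receptor, was the 1 of 32 hepatocyte transcription factor genes that passed (0.69 ± 0.18, adjusted p = 0.0426), whereas Foxa2, Hhex and Cebpa gave 0.28, 0.28 and -0.03 with SE of 0.16 to 0.31.

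Among 24 hepatocyte markers, 2 passed as higher and 1, Tdo2, as lower, with a median of -0.08. Apob, the scaffold of very low density lipoprotein, read 10.99, 10.54 and 10.13 in young and 11.56, 11.27 and 11.37 in old. Old replicate 3 lay between the other old arrays, and the difference of 0.85 ± 0.20 (adjusted p = 0.0279) was 0.86 without it. The coagulation factor gene F9 passed at 0.40. Gluconeogenesis and glucocorticoid genes had 1 lower call of 28, Tdo2, and a median of -0.08; Pck1 and G6pc differed by -0.03 ± 0.20 and -0.27 ± 0.30.

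Of 51 mitochondrial respiratory chain genes, 12 were positive and the median was -0.13, with 1 lower call, the complex II subunit Sdhb (-0.49 ± 0.13, adjusted p = 0.0441). The 51 cell cycle genes had 2 lower calls, Mki67 (-0.66, on a probe set with the r suffix; the other gave 0.21) and Tk1, the thymidine kinase of dividing cells (-0.39 ± 0.10, adjusted p = 0.0408), and a median of -0.01. Ccnd1 and Cdkn1a, cyclin D1 and its partner inhibitor p21, differed by 0.07 ± 0.18 and 0.11 ± 0.11. Growth factors and receptors (37), ribosome biogenesis (36), ribosomal proteins (27), actin and SRF targets (41), heat shock (41), hypoxia (31) and antigen presentation (26) had 0 calls, with medians from 0.01 to 0.11. Hgf, the hepatocyte growth factor, differed by 0.13 ± 0.10 at signals of 2.95 to 3.29.

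**Figure D4:**
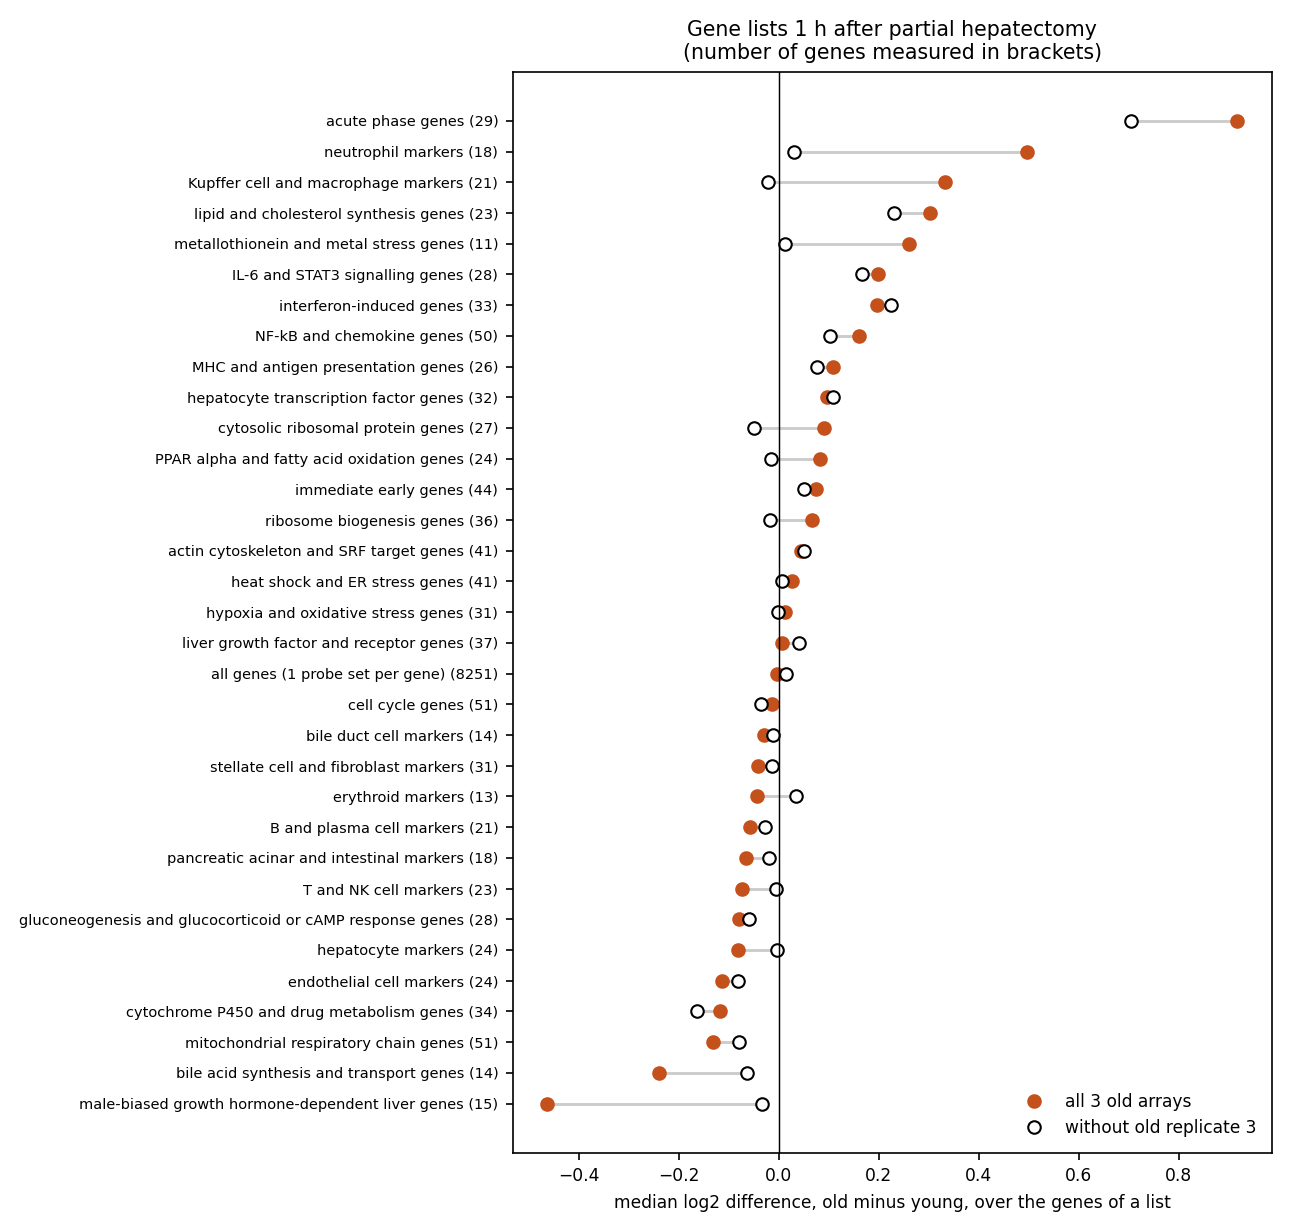
Each row is a gene list (y axis, with the number of genes measured) and the x axis gives the median log2 difference between old and young livers 1 h after hepatectomy, with all arrays (filled) and without old replicate 3 (open). The acute phase list stays far from 0 without that array (0.70), while the neutrophil, macrophage and male-biased lists move to 0.03, -0.02 and -0.03.

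Other genes with large differences belonged to none of these lists. St6gal1, the sialyltransferase of plasma glycoproteins, read 8.78, 8.22 and 8.45 in young and 9.70, 9.44 and 10.28 in old (1.32 ± 0.26, adjusted p = 0.0106). The membrane protein gene Tmem176a read 10.73, 9.91 and 9.90 in young and 11.63, 11.11 and 11.67 in old, and its difference of 1.29 ± 0.26 (adjusted p = 0.0114) was 1.19 without old replicate 3. In both genes no old array entered the young range. Ugcg, the glucosylceramide synthase, differed by 1.29, Id3, a dominant-negative helix-loop-helix factor, by 1.35, the lipid flippase Atp11a by 1.65, the immune receptor Lilr4b by 1.50 and Tbc1d24 by 1.50. Without old replicate 3 Ugcg gave 1.00, Id3 0.82, Atp11a 1.58, Lilr4b 0.91 and Tbc1d24 0.92. Slc4a4, the sodium bicarbonate cotransporter, read 6.52, 6.42 and 6.26 in young and 7.16, 7.46 and 8.12 in old. Its difference of 1.18 ± 0.20 (adjusted p = 0.00395) passed under 17 of 19 alternative settings and was lost when old replicate 3 was left out (0.90 ± 0.19).

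Several genes that passed have a second, dimmer probe set that did not. For Nfkbiz it gave -0.11, for Mpeg1 -0.11, for Slc11a2 -0.04, for Tk1 0.01, for Acadvl -0.04 and for Clcn4 0.15. The 2 other probe sets of Cftr gave -0.05 each. Those of St6gal1 and Ugcg had the same sign as the brighter ones, at 0.49 ± 0.17 and 0.57 ± 0.22. Which probe set of a gene reads its transcript better was not tested.

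Many of the lower calls came from 1 class of probe set. Of the 103, 44 carried the r suffix, which the array's maker gives to probe sets built under relaxed rules; this class made up 7.25% of the probe sets tested and 0 of the 149 higher calls. The class as a whole had a median difference of -0.13, against -0.01 for probe sets without suffix, and -0.12 at 0 h. Its median on the 3 old arrays was 5.25, 5.26 and 5.09, below the 5.30, 5.35 and 5.43 on the young. An exact two-sided permutation test over the 6 arrays gave p = 0.1, the smallest that 3 against 3 allows. Of the 36 such lower calls with 1 gene symbol, 31 genes had 33 other probe sets without the suffix. Of those 33, 2 passed as lower, and their median difference was -0.04 against -0.60 for the suffixed ones. Of the 15 lowest genes, 6 rest on such probe sets (Insl3, Gtf3c4, Gm14743, Tcea2, Mki67 and Fv1), with differences from -0.86 to -0.65; for Gtf3c4 and Tcea2 the other probe set gave 0.20 and -0.04. Leaving out the class gave 133 higher and 53 lower calls.

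The difference between the 3′ and 5′ probe sets of the Gapdh control, a measure of RNA integrity, was 0.387 ± 0.0148 in old and 0.269 ± 0.0788 in young (SD, n = 3; exact two-sided permutation p = 0.1, 0.167 adjusted over 5 array values). The 3 old arrays were above the 3 young. With this value as a covariate 411 probe sets passed, and its part in the differences was not tested further. The same measure on actin did not separate the groups (1.05 ± 0.225 against 1.02 ± 0.0609, exact p = 1).

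The age difference was set beside that on arrays the comparison did not use. Before surgery 18 probe sets passed between old and young (0.145%), 16 higher in old (0.129%) and 2 lower (0.0161%). After sham 9 passed (0.0725%), 5 higher (0.0403%) and 4 lower (0.0322%). After hepatectomy 39 passed at 0.5 h (0.314%), 20 higher (0.161%) and 19 lower (0.153%). At 2 h 57 passed (0.459%), 47 higher (0.378%) and 10 lower (0.0805%), and at 4 h 27 passed (0.217%), 24 higher (0.193%) and 3 lower (0.0242%). Of the 149 probe sets higher at 1 h, 124 (83.2%) were also above 0 before surgery, where 32.7% of all probe sets were, 103 (69.1%) after sham, where 54.1% were, and 134 (89.9%) at 4 h, where 41.8% were. Their median difference was 0.16 before surgery and 0.16 after sham. Their 0.70 at 1 h comes from the arrays that chose them and is not set against these. Of the 103 lower ones, 94 (91.3%) were below 0 before surgery, where 67.3% of all were, and 61 (59.2%) after sham, where 45.9% were. The part of the r suffix in that share was not tested.

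**Figure D5:**
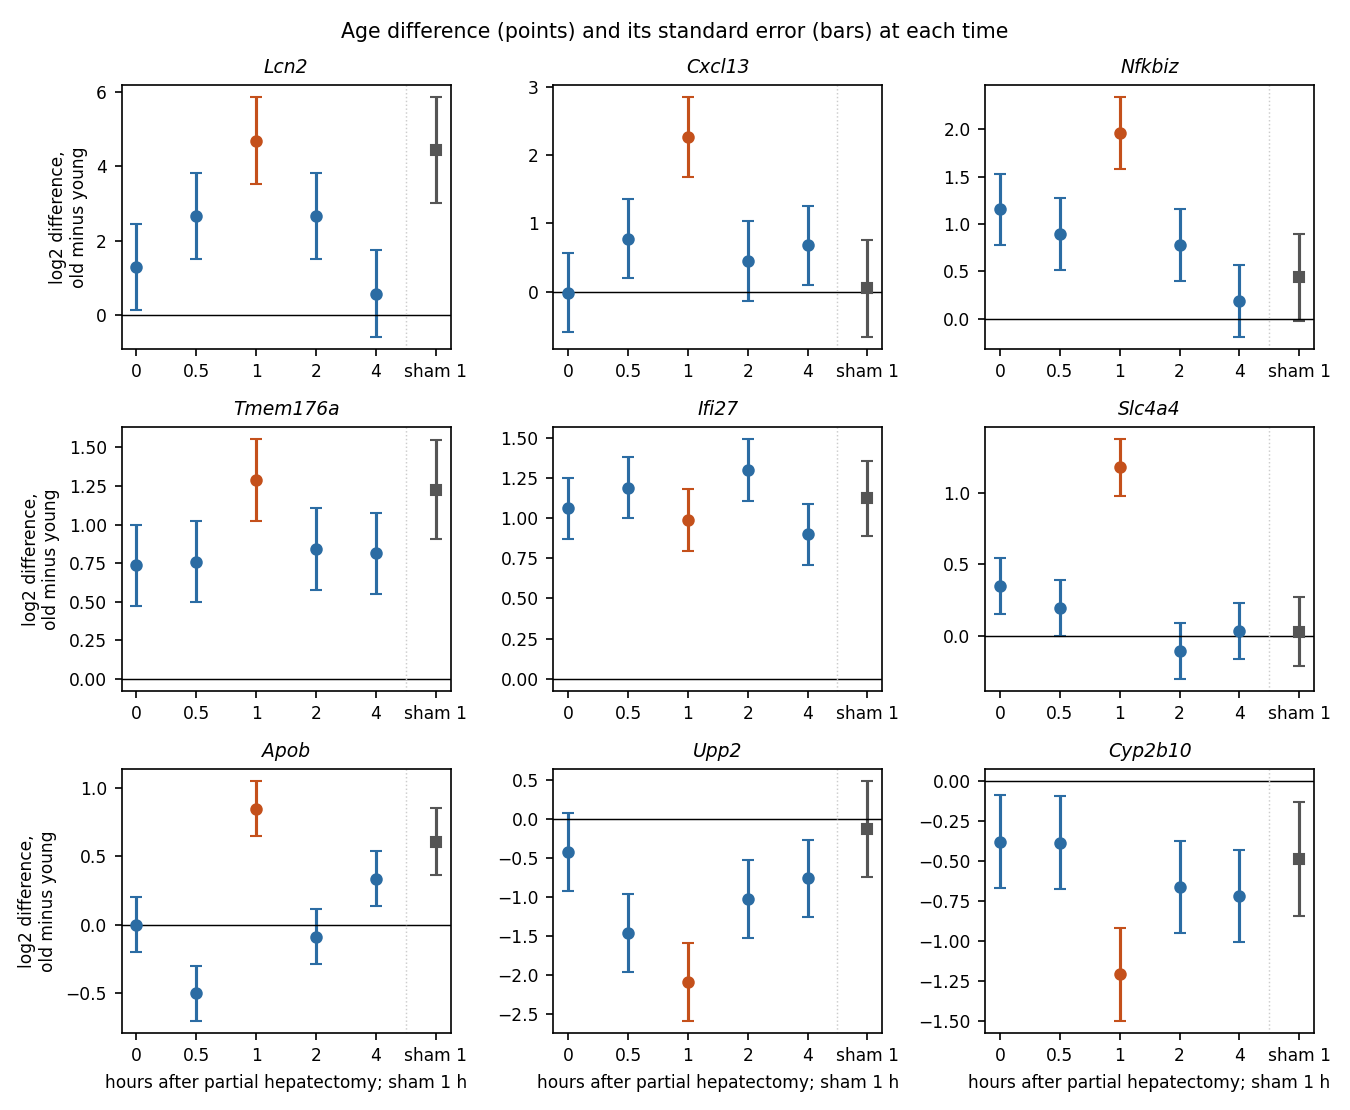
The y axis gives the log2 difference between old and young livers (points) with its standard error (bars) for 9 genes, and the x axis the time after partial hepatectomy in hours, in even steps, followed by the sham operation at 1 h (grey squares); 0 is before surgery. Ifi27 lies between 0.90 and 1.30 at every time, and Lcn2 is nearly as high after sham (4.42) as after hepatectomy (4.68). Slc4a4 gives 1.18 at 1 h, but no probe set passed a test of 1 h against 0 h, sham or the other times.

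No gene passed a test of whether the age difference at 1 h after hepatectomy was unlike the one elsewhere. These tests share the hepatectomy arrays with the comparison above. Against the difference before surgery 0 probe sets passed (limma; 607 at an unadjusted p under 0.05, smallest adjusted p 0.709). The genes with the smallest p included Clcn4, a chloride and proton exchanger, which differed by 0.58 at 1 h and by -0.08 at 0 h (change 0.66 ± 0.15), and Dync1h1, the dynein heavy chain, with 0.53 and -0.06. Socs2, an inhibitor of growth hormone signalling, gave -1.93 at 0 h and 0.67 at 1 h, neither past the threshold, a change of 2.60 ± 0.67 (adjusted p = 0.85). Without old replicate 3 its 1 h value was 0.38. Srebf1, the lipogenic transcription factor, was 0.83 higher in old at 0 h (adjusted p = 0.0397) and gave -0.13 at 1 h.

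Against the sham operation 0 probe sets passed (2132 at an unadjusted p under 0.05, smallest adjusted p 0.112). Against the mean of 0.5, 2 and 4 h after hepatectomy 0 passed (1208, smallest adjusted p 0.141). Slc4a4 had 1.18 at 1 h and 0.19, -0.10 and 0.04 at 0.5, 2 and 4 h, and Apob had 0.85 against -0.50, -0.09 and 0.34. Guk1, guanylate kinase, had 0.42 against values from -0.10 to 0.00. Without young replicate 1 the 3 tests gave 8, 9 and 17 calls, without old replicate 2 they gave 3, 0 and 11, without old replicate 1 they gave 0, 0 and 2, and with array weights 10, 0 and 13.

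Set against unoperated livers of the same age, 201 probe sets passed at 1 h in old (1.62%), 150 higher (1.21%) and 51 lower (0.411%). In young 71 passed (0.572%), 56 higher (0.451%) and 15 lower (0.121%). Lcn2 was 4.93 higher at 1 h in old, which passed, and 1.54 in young, which did not. Inmt was -1.61 in old (adjusted p = 0.0248) and -0.09 in young. A pass in 1 age and not in the other is not a difference between ages, and the test of that difference is the one above, in which 0 passed.

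At the edge of the threshold, Rras, Ptprg, Slc6a6 and Ambp passed with differences of 0.53 to 0.63 and adjusted p from 0.0483 to 0.0495. Without old replicate 3 Ptprg gave 0.34 and Slc6a6 0.29. Just beyond it Arl14ep, Litaf, Angel2 and Trim41 gave 0.39, 1.06, 0.33 and 0.33 with adjusted p from 0.0501 to 0.0522.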

How the data were processed

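Liver RNA was hybridised to Affymetrix Murine Genome U74 version 2 arrays. The authors deposited log2 values from RMA, as the submitters' processing notes state. Which software did this, and over which arrays at once, is not given in the sources used here. Of 12488 probe sets, 66 controls were left out. By the platform annotation 10833 probe sets carried 1 symbol, 396 several and 1193 none, covering 8251 genes. All 46 arrays entered 1 limma fit (3.58.1, R 4.3.3; 18 group means, 28 residual and 5.09 prior degrees of freedom), and each comparison was a contrast adjusted by Benjamini-Hochberg. On simulated data the fit was checked for recovery of known differences. The comparison, the 32 gene lists and the rule for named genes were chosen with earlier results of these data known. Named were up to 15 genes at each end, up to 4 passing members of a list (2 where none passed), up to 10 with the smallest p in 2 interaction tests, and 26 fixed genes; others named (Il1b, Itih4, Hpx, Hp, the granule genes Mpo, Ngp, Elane and Ly6g, and Clec4f and Alb) were chosen after their values were seen. Arrays have no read depth, so their number limits the precision. Alternatives changed the arrays fitted, the scaling, the filter on dim or suffixed probe sets, the variance settings and the covariates, or left out 1 array.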

Additional observations from a re-analysis of the deposited data

How the results depend on the processing

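The 252 calls between old and young livers 1 h after hepatectomy became 1 with the 6 arrays fitted alone (0 of the 252 kept), 155 with 1 probe set per gene, 134 (101 higher, 33 lower) without suffixed probe sets, 486 with array weights, 47 without the sham arrays, and, chosen after seeing the data, 30 without young replicate 1 and old replicate 3 together and 411 with the Gapdh covariate. Leaving out 1 array gave 0 to 640. The counts were 263, 216, 234, 237, 179 and 186 with centred arrays, without the dimmest 25% of probe sets, with trend and robust settings, with the replicate number as a block (223 of the 252 kept), with a spike-in covariate and without r-suffixed probe sets. The block changed no other count by over 1.5 times, and same-numbered old and young arrays did not deviate together (r = -0.225, -0.0831 and -0.274), which gave no ground for pairing them. The 18 calls before surgery became 7 alone, 2 with 1 probe set per gene, 4 without suffixes, 623 with array weights, 8 without sham arrays and 6 to 16 without 1 array. The 9 sham calls became 2, 3 (without suffixes), 1 (array weights) and 0 to 1123. The 3 interaction tests gave 0 to 8, 0 to 9 and 0 to 17 without 1 array, and 10, 0 and 13 with array weights. The cause was not tested, except that fewer arrays or probe sets entered where these were left out. Of 2406 values for 129 named genes, 1900 kept their side of the threshold, 443 lost it, 63 gained it and none that had passed changed sign. Group sizes of 3 and 2 limit all of these counts.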

Other observations

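The genes here were chosen after their values were seen. Tollip, an adaptor that dampens interleukin 1 and Toll-like receptor signalling, shared the smallest adjusted p of the comparison with 1 probe set that carries no single symbol. It read 7.26, 6.98 and 7.04 on the young arrays and 7.62, 7.62 and 7.87 on the old, so all old arrays lay above all young ones. The difference was 0.61 ± 0.09 (limma adjusted p = 0.0014), and 0.53 ± 0.10 without old replicate 3 (adjusted p = 0.065). Ly6e, an interferon-inducible membrane protein, read 11.60, 10.73 and 11.12 in young and 11.90, 12.44 and 12.52 in old, with no overlap. It differed by 1.14 ± 0.22 (adjusted p = 0.0104), and by 1.36 after sham (adjusted p = 0.0338). Serping1, the C1 inhibitor of complement, differed by 0.62 ± 0.14 (adjusted p = 0.0250), with old replicate 1 close to the highest young array. Tmem176b, the relative of Tmem176a, differed by 1.27 ± 0.24 (adjusted p = 0.0104).

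With both young replicate 1 and old replicate 3 left out, 30 probe sets passed, 26 of which had passed with all arrays. Among the 13 higher ones were Tollip, Ly6e, Serping1, Hp, Apob, Ifi27, Slc4a4, Tmem176a and Tmem176b. Of the 17 lower ones, only Mtm1 (-2.18), Scin (-0.94), Car14 (-0.86), Map2k6 (-0.74) and Emcn (-0.61) carried 1 gene symbol. The Scin probe set has the r suffix, and those of Mtm1, Emcn and, among the higher ones, Ly6e carry other suffixes.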
